A study of Mus musculus with 4 samples.

Results

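Serpins are a family of proteins most of which trap and inactivate a serine or cysteine protease, and the plasminogen activators are the serine proteases that some of them hold in check. The genes described here are those whose array probe sets carry a single symbol that begins with Serpin, or the symbol Plau, Plaur or Plat. The rule found 33 genes, measured by 43 probe sets, among 12394 genes with a probe set of 1 symbol. By serpin clade, the letter in the gene symbol, they comprise 8 genes of clade A, 14 of clade B, 2 of clade F, 2 of clade I and 1 each of clades C, D, G and H, besides the 3 plasminogen activation genes. Clade E, which includes the plasminogen activator inhibitor PAI-1, is not analysed here.

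RNA came from female, nulliparous mice on a C57BL/6 background that either lacked Sca-1, a membrane protein by which stem and progenitor cells are often sorted, or were age-matched wild-type littermates. The 4 groups were wild-type gland and Sca-1 KO gland, both mammary gland at 6 weeks, and mammary tumors of wild-type and Sca-1 KO mice treated with MP-DMBA. That treatment is a subcutaneous injection of 15 mg of MP, a depot progestin, and then DMBA, a chemical carcinogen, at 1 mg by mouth in each of 4 weeks. The tumor labels give no age, and the gland labels name no carcinogen although a common treatment text is attached to all samples. All mice ate standard rodent chow, and the Sca-1 gene itself was not analysed here. Each group was 1 array hybridised with RNA pooled from 5 mice, so the spread between mice is not measured, no test was possible and every difference below is a difference between 2 arrays.

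Signals are linear intensities in array units, and a pair of signals for glands or tumors is given with wild type first and knockout second. Differences are given on the log2(signal + 27.3) scale, where 27.3 is the lower quartile of all values, and folds come from the same scale, which understates differences of dim genes. The floor used below is a signal of 168, the median of all values. A gene is called higher or lower where the difference is at least 2-fold and at least 1 of the 2 compared arrays is at or above the floor. Median signals of the arrays were between 151 and 199, highest in the knockout gland. For beta-actin, the 3'/5' signal ratio of the array's control probe sets, a sign of RNA integrity, was 2.35 and 1.61 in the glands and 1.225 and 1.29 in the tumors. The only gauge of measurement error was how far the log2 differences of a gene's 2 brightest probe sets lay apart. The median absolute deviation of these gaps over genes was scaled to the standard deviation of 1 probe set. On the log2 scale this spread was 0.22 and 0.18 for the genotype differences of glands and tumors. For the tissue differences of wild type and knockout it was 0.51 and 0.48. It covers neither mice nor pools. Of 8 luminal epithelium markers 7 reached the floor on some array, Esr1 being the exception, and all 7 white adipocyte markers did. All 6 skeletal muscle markers also did, with summed signals of 37627 and 36104 in the glands and of 250 and 668 in the tumors, and in the tumors only Acta1 reached the floor, at 428 in the knockout.

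As background, urokinase (Plau) and tissue plasminogen activator (Plat) cut plasminogen to plasmin, a protease that dissolves fibrin and helps to break down matrix. Urokinase is held at the cell surface by its receptor, Plaur. Clade A serpins circulate in plasma and are made mainly by the liver, clade B serpins stay mostly inside cells and guard them against their own granule and lysosomal proteases, and the smaller clades include inhibitors of clotting, complement and plasmin as well as members that inhibit no protease. In the mammary gland, Serpinb5 (maspin) is known as a product of myoepithelial cells.

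Of the 33 genes, 8 were at or above the floor on all 4 arrays, 3 on 3 arrays, 2 on a single array and 20 on none. The 20 dim genes had signals between 0.1 and 155 and are given below by their ranges. The plot of signals by array shows the 13 others.

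**Figure D1:**
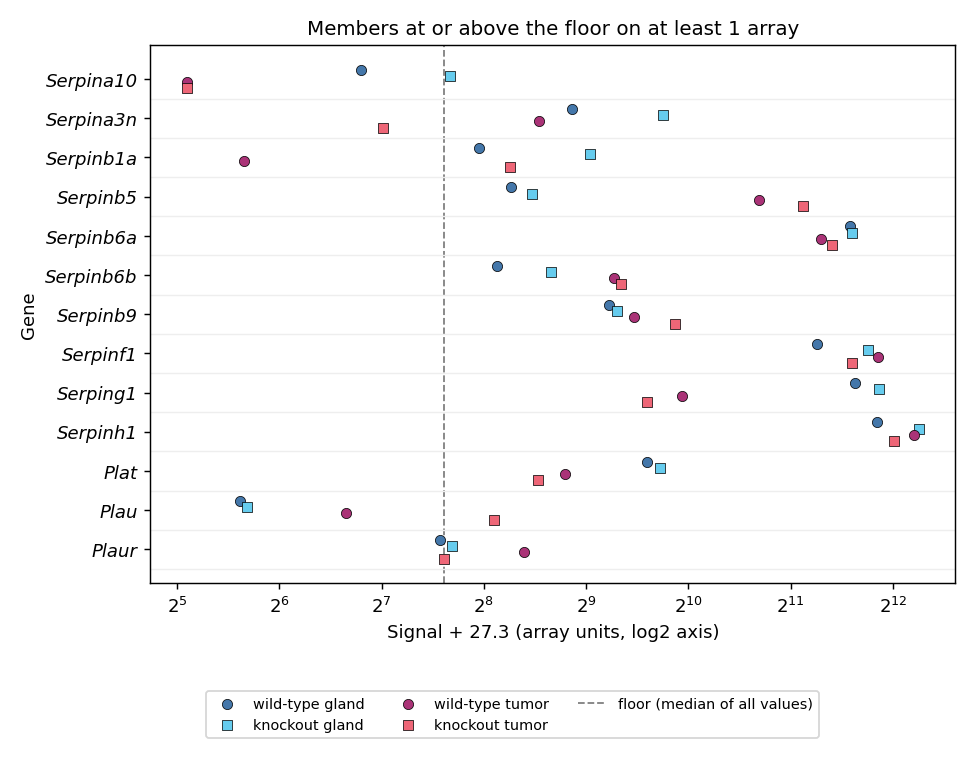
Signal plus 27.3 on a log2 axis for the 13 genes that reached the floor, with 1 point for each of the 4 arrays and the floor of 168 as a dashed line. Serpinb5 lies to the right in both tumors, Serping1 to the left in both tumors, Serpinb1a far to the left in the wild-type tumor alone, and Plau crosses the floor in the knockout tumor alone.

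In the mammary gland, where the comparison of genotypes asks what differed without Sca-1 in tissue without a tumor, a single gene was called. Serpinb1a, an inhibitor of the neutrophil proteases elastase, cathepsin G and proteinase 3, was 2.12-fold higher in the knockout gland. None of the 33 was called lower. Among all 12394 genes, 0.621% were called higher and 0.161% lower. The members' median difference was 0.13, against 0.04 for all genes, and 29 of the 33 were positive in sign, most of them dim. This lean rested on the scaling: under median centring the members' median was -0.09 with 13 positive, and after quantile normalization 0.02 with 20 positive. The ratio of higher to lower genes in this comparison depended on scaling: 77 genes were higher and 20 lower as deposited, 38 and 37 with each array centred on its median, which moved the median of all genes from 0.04 to -0.19, and 58 and 33 after quantile normalization.

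In the tumors, where the comparison concerns the same deletion in tumor tissue, 2 of the 33 genes were called higher in the knockout and 1 was called lower. The higher genes were Serpinb1a at 6.05-fold and Plau at 2.72-fold, and the lower one was Serpina3n, an acute-phase inhibitor of granzyme B and cathepsin G, at 2.87-fold. Of all genes 1.27% were called higher and 1.14% lower. The members' median was -0.00 and that of all genes 0.01, with 16 members positive and 17 negative, so the list as a whole did not lean to either side.

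Between tissues, 2 members were called higher in the tumor than in the gland of wild-type mice, Serpinb5 and Serpinb6b, and 2 were called lower, Serpinb1a and Serping1. Of all genes 8.33% were called higher and 10.5% lower, and 2 of 33 members (6.06%) in each direction is near these shares. In the knockout, 2 members were called higher in the tumor, Plau and Serpinb5, and 4 lower, Plat, Serpina10, Serpina3n and Serping1. Here 8.29% of all genes were called higher and 11.8% lower, and the 4 lower members make 12.1% of the list. With each array centred on its median, the counts over all genes in the knockout turned from 1027 higher and 1468 lower to 1667 and 1071, and the median of all genes moved from -0.17 to 0.16. These pools are bulk tissue, in which fewer cells of a type and less RNA per cell cannot be told apart. Between gland and tumor the summed signals of the white adipocyte markers dropped from 40092 to 3951 in wild type and from 37832 to 2846 in knockout, with 7 of 7 markers called lower in each genotype, and all 6 skeletal muscle markers were called lower in each. Their part in the differences below was not tested.

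Of the plasminogen activation genes, urokinase was near background in both glands. The signals of Plau were 21.9 and 24.3 in the glands and 73.1 and 246 in the tumors. Only the knockout tumor reached the floor, and its signal is 2.72-fold above the wild-type tumor and 5.30-fold above the knockout gland. A second, dimmer probe set for Plau read 7.6, 20.0, 23.4 and 65.4 on the same arrays in the same order, below the floor throughout, with a difference of 0.87 between the tumors in place of 1.45. Both probe sets thus had their highest signal in the knockout tumor. The call between the tumors was lost with the offset at the median of all values, at 0.78, and for the floor alone with the median over both probe sets (1.16) and where both tumors had to reach it. The call against the knockout gland was lost for the floor alone under the last 2 of these settings, and its log2 difference ranged from 1.11 to 3.29 over those tried.

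The urokinase receptor went the other way between the tumors, but by less than 2-fold. Plaur had signals of 163 and 179 in the glands and 308 and 168 in the tumors. The wild-type tumor stood above the other 3 arrays, which lay close to each other and to the floor. The difference of knockout from wild type was -0.78 for the tumors and 0.11 for the glands, a sign that both median centring and quantile normalization turned. Ligand and receptor were therefore highest on different tumor arrays.

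Tissue plasminogen activator, which acts mainly on fibrin in blood vessels, was above the floor on every array. The signals of Plat were 746 and 820 in the glands and 416 and 343 in the tumors, so both tumors lay below both glands. The tumor was 2.29-fold lower than the gland in the knockout. That call was lost under median centring, at -0.87, and with the offset at the median of all values, at -0.95. In wild type the difference was -0.80, just inside 2-fold. Between genotypes it differed by 0.13 in the gland, a sign that median centring turned, and by -0.26 in the tumor. Of 7 endothelial markers, the cells that are its best known source, 3 were called lower in the wild-type tumor than in the gland and 5 in the knockout. Their summed signals were 4111 and 4872 in the glands and 1965 and 1705 in the tumors. The part of endothelial cells in the difference was not tested.

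**Figure D2:**
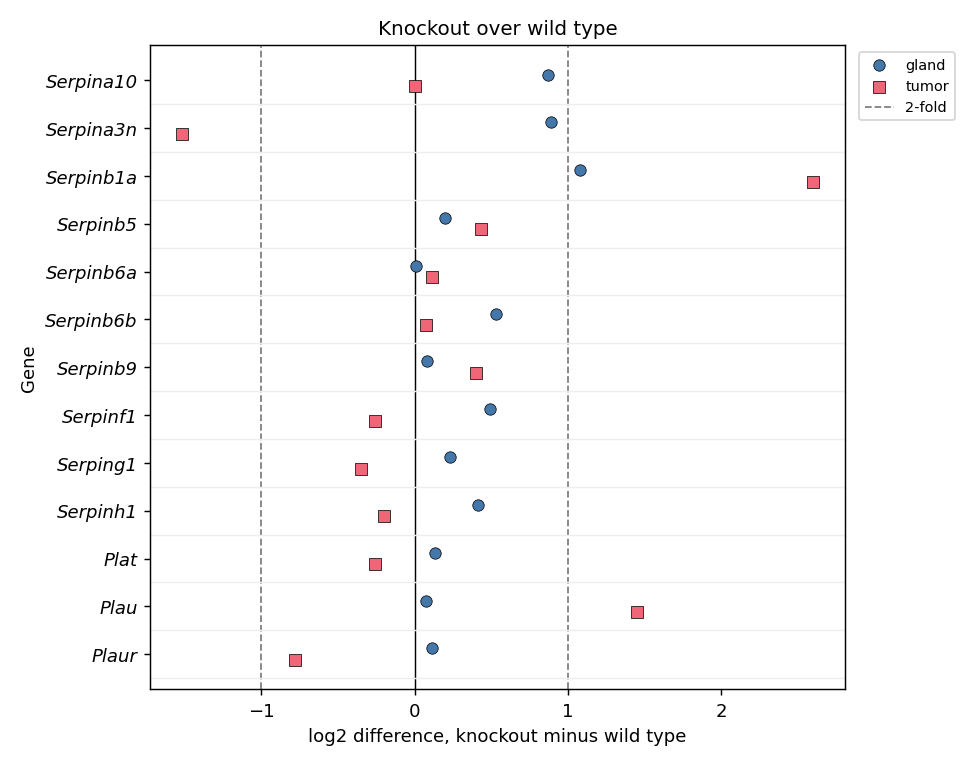
Difference of knockout from wild type (log2) in the gland (circles) and the tumor (squares) for the 13 genes that reached the floor, with 2-fold marked by dashed lines. Serpinb1a lies to the right in both tissues, at 1.08 and 2.60, while Serpina3n has 0.89 in the gland and -1.52 in the tumor and Plau departs from 0 in the tumor alone.

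Clade B held the 14 intracellular serpins, of which 5 reached the floor. Serpinb1a had the widest difference between genotypes. Its signals were 221 and 499 in the glands and 23.2 and 278 in the tumors. The wild-type tumor was thus at background while the other 3 arrays were above the floor. The knockout tumor exceeded the wild-type tumor 6.05-fold. Because the lower signal is at background, the size of that fold depends on the offset, and the log2 difference ranged from 1.22 to 3.53 over the settings tried; the call was lost where both tumors had to reach the floor and with the median over both probe sets, which lies below the floor. The wild-type tumor was 4.92-fold below the wild-type gland, a log2 difference that ranged from -3.20 to -1.03 and lost its call under the same 2 settings. The knockout tumor differed from the knockout gland by -0.78.

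In the gland the call of Serpinb1a was close to the threshold: its difference of 1.08 became 0.78 with the offset at the median of all values, 0.86 under median centring, 0.99 after quantile normalization and 0.79 with the median over its probe sets. Its second probe set, of a design that can match several transcripts, read 55.3 and 90.1 in the glands and 3.6 and 42.4 in the tumors. It stayed below the floor but was lowest on the same array, with differences of 0.51 and 1.17 between genotypes in gland and tumor. Serpinb1b, a close relative in the same neighbourhood of the genome, was dim everywhere, at 1.8 and 2.3 in the glands and 0.8 and 56.6 in the tumors, so its highest signal was also on the knockout tumor array.

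Since Serpinb1a is known as an inhibitor of neutrophil proteases, the neutrophil markers are given beside it. Of 7 measured, 3 were called higher in the knockout gland, S100a8, S100a9 and Ngp, and 2 were called lower in the knockout tumor, S100a8 and S100a9. Their summed signals were 1956 and 2392 in the glands and 4348 and 3736 in the tumors. Ltf made up the largest part of each sum, at 1623 and 1222 in the glands and 2962 and 3261 in the tumors. Its genotype differences, -0.40 in the gland and 0.14 in the tumor, were uncalled and opposite in sign to those of S100a8 and S100a9. Whether the Ltf signal came from neutrophils was not tested, so the sums are not read as a measure of neutrophil number. Csf3r, Cxcr2 and Camp were below the floor on all 4 arrays. Serpinb1a was called higher in the knockout in both tissues. Between the tumors S100a8 and S100a9 were the only neutrophil markers called, and Ngp was below the floor there, at 11.8 and 13.8. In the gland 5 of 6 B cell markers were also called higher in the knockout, with summed signals of 1380 and 3712, and none between the tumors, at 181 and 156. The part of either cell type in the Serpinb1a difference was not tested.

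Serpinb5, maspin, an intracellular and matrix serpin that inhibits no known protease and is studied as a suppressor of mammary tumor growth, was higher in both tumors than in both glands. Its signals were 282 and 327 in the glands and 1629 and 2197 in the tumors, a 5.36-fold difference in wild type and 6.29-fold in knockout. The glands and tumors did not overlap. Its 3 probe sets had the same direction, with differences of 2.42, 1.32 and 1.31 in wild type and 2.65, 2.16 and 2.17 in knockout. Between genotypes it was within 2-fold, at 0.43 in the tumor and 0.20 in the gland, where the probe sets disagreed in sign. The basal keratins Krt5 and Krt14, known like maspin as products of myoepithelial cells, were also called higher in both tumors. Krt5 had signals of 458 and 501 in the glands and 4367 and 5245 in the tumors, and Krt14 of 624, 562, 4518 and 5448 on these arrays. Cells were not resolved here. Over the whole keratinocyte list, 10 of 13 markers were called higher in the wild-type tumor than in the gland and 3 in the knockout, and summed signals were 1596 and 1910 in the glands and 19149 and 12229 in the tumors. Ivl and Dsc1 stayed below the floor. The part of epithelial cell number in the Serpinb5 difference was not tested.

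The other clade B genes above the floor varied less. Serpinb6b, a relative of the cathepsin G inhibitor Serpinb6a, had signals of 253 and 376 in the glands and 590 and 621 in the tumors. It was higher in both tumors than in both glands, by 2.20-fold in wild type, a call lost with the offset at the median of all values (0.85), and by 0.69 on the log2 scale in knockout. Serpinb9, which protects cells from granzyme B, read 570 and 605 in the glands and 684 and 908 in the tumors, all 4 differences lying within 0.57 on the log2 scale. Serpinb6a was bright and the most even of the clade, at 3041 and 3070 in the glands and 2492 and 2689 in the tumors.

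Clade B genes lie in 2 neighbourhoods of the mouse genome (GRCm38.p6, used here for gene order): 5 of the members sit among 12 neighbouring serpin genes on chromosome 1 and 9 among 16 on chromosome 13. The neighbourhoods differed in sign between the tumors, but only through genes below the floor. All 9 members of chromosome 13 were positive in sign in the knockout tumor, with a median of 0.25, whereas of the 5 on chromosome 1 all but Serpinb5 were negative, with a median of -0.60. Only Serpinb1a among the 14 was called between genotypes, and 9 of them never reached the floor. The members that did, Serpinb5 among them, were all positive between the tumors. The contrast thus rests on the 4 dim genes of chromosome 1 and was not tested. The share of positive signs over all genes was not counted. In the gland all 14 were positive as deposited, but 9 were negative under median centring, Serpinb5, Serpinb6a and Serpinb9 among them, and 3 after quantile normalization. Between the tumors both scalings left the same 4 negative.

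The 4 dim genes of chromosome 1 include Serpinb2 (PAI-2, an inhibitor of urokinase), which read 5.6 and 7.7 in the glands and 151 and 80.8 in the tumors. Serpinb8, an inhibitor of furin, read 52.5, 75.4, 155 and 115 in that order. Both were thus highest in the wild-type tumor and lowest in the glands, as Plaur and many keratinocyte markers were highest there. Serpinb11 read between 53.4 and 73.4 on 3 arrays and 12.6 in the knockout tumor, and Serpinb7 between 15.5 and 29.8 on those arrays and 4.6 in the knockout tumor. The 5 dim genes of chromosome 13, Serpinb1b, Serpinb6c, Serpinb9b, Serpinb9c and Serpinb9g, lay between 0.1 and 115, and Serpinb9b was the brightest of them, at 96.4 and 115 in the glands against 14.4 and 29.9 in the tumors. Members of the 1, 6 and 9 subfamilies are near copies, and cross-hybridisation between their probe sets was not tested.

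**Figure D3:**
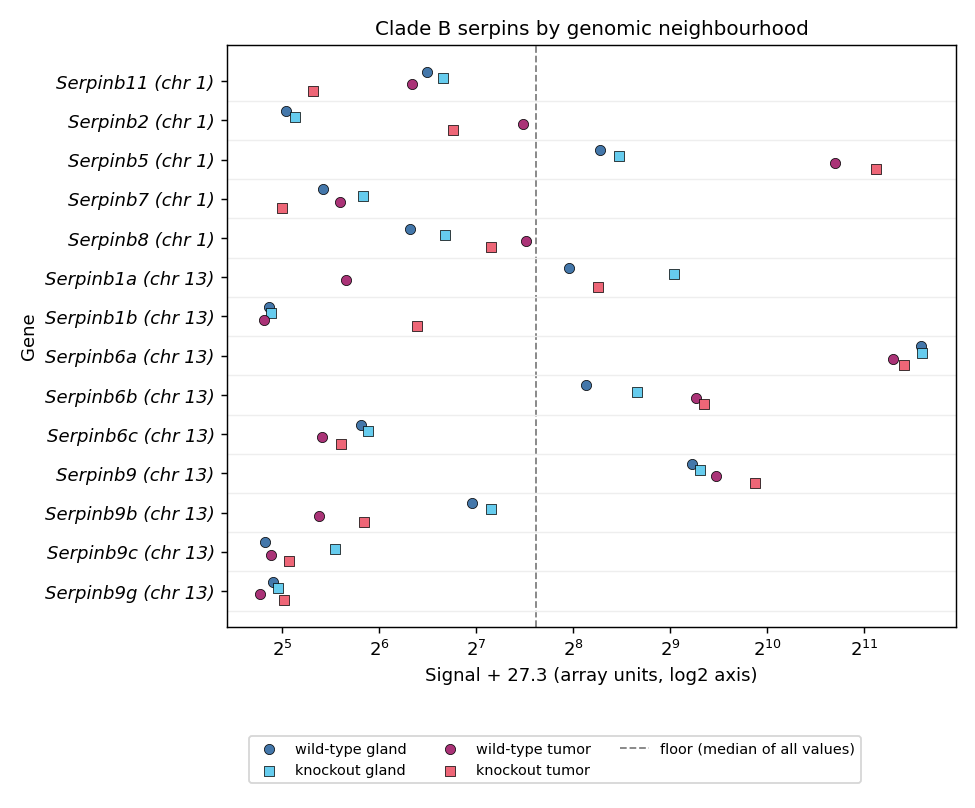
Signal plus 27.3 (log2 axis) of the 14 clade B genes on the 4 arrays, grouped by chromosome, with the floor of 168 dashed. On chromosome 1 only Serpinb5 passes the floor, and Serpinb2 and Serpinb8 lie furthest right in the wild-type tumor; on chromosome 13 Serpinb1a spans the widest range.

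The promoter windows of the 5 chromosome 1 genes are shown because all of them hold a match to TGANTCA. This is a loose form, with any base at its centre, of the AP-1 element, the binding sequence of the Fos and Jun transcription factors. It is in none of the windows of the 8 chromosome 13 members that have one. Each window runs from 250 bases before to 50 bases after a transcription start in RefSeq (GRCm38.p6), 5′ to 3′, with matches to TGANTCA in capitals.
Serpinb5, chr1:106860925-106861224, plus strand: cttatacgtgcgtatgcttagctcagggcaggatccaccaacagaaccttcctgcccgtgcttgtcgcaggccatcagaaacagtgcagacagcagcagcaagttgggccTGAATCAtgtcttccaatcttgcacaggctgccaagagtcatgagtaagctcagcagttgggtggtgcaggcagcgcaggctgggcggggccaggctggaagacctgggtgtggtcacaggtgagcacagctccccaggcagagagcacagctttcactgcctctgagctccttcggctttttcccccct
Serpinb11, chr1:107362064-107362363, plus strand: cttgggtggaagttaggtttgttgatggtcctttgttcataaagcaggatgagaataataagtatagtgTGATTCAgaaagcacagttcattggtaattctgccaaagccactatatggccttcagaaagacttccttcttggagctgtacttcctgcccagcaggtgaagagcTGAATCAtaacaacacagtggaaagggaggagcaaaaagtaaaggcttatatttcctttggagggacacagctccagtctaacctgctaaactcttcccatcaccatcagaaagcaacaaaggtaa
Serpinb7, chr1:107422439-107422738, plus strand: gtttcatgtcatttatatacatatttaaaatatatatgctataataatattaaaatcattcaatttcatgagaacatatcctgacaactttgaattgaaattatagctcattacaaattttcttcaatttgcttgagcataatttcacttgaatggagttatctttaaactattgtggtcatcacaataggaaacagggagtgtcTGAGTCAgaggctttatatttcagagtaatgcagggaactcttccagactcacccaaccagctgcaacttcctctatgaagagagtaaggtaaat
Serpinb2, chr1:107511173-107511472, plus strand: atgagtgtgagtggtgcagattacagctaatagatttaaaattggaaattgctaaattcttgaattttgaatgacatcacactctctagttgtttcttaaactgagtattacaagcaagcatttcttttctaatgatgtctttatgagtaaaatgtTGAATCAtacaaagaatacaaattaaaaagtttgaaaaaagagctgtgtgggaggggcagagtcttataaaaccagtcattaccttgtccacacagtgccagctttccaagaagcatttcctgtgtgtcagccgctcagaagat
Serpinb8, chr1:107589756-107590055, plus strand: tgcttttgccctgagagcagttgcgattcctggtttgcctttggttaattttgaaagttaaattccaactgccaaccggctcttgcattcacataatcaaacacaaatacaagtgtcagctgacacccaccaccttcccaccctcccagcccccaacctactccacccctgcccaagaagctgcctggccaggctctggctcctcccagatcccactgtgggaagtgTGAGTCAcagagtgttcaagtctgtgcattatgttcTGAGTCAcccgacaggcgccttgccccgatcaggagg

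Positions counted from the start site put the matches at -140 in Serpinb5, at -181 and -76 in Serpinb11, at -45 in Serpinb7, at -94 in Serpinb2 and at -23 and 13 in Serpinb8, each figure being the first base of the match. The table held 30 windows for 27 of the 33 genes, and Plat, Plau, Serpina10, Serpina6, Serpinb1a and Serping1 had none. TGANTCA, which reads the same on both strands, was in 9 of the 30 windows, against 7.81% of all 32851 windows of this length. On chromosome 1 it was in 6 of 6 clade B windows, Serpinb2 having 2 overlapping windows with the same match, and on chromosome 13 in 0 of 10. The other 3 windows belong to Plaur, at -69, and to the near copies Serpina1b and Serpina1c. The usual AP-1 element has C or G at its centre. The centre base was G in Serpinb7 and Serpinb8 and C in Plaur, Serpina1b and Serpina1c. In Serpinb5, Serpinb11 and Serpinb2 it was A or T, so these matched only the loose form. Searches on both strands for TTCNNNGAA, a STAT element, and TATAAA, the TATA box, found 4 and 6 of the 30 windows, against 8.30% and 13.6% of all, and no match overlapped a match to another motif. A match is a run of letters, and binding was not measured. The genes with a TGANTCA match were not all brightest on the same array. Serpinb5 was brightest in the knockout tumor, and Plaur, Serpinb2 and Serpinb8 in the wild-type tumor. Serpinb11, Serpinb7, Serpina1b and Serpina1c were brightest in the knockout gland. Among these genes only Serpinb5 and Plaur reached the floor on any array, and the part of these matches was not tested.

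Clade A, the plasma serpins, had 2 of 8 genes at the floor. Serpina3n had signals of 438 and 836 in the glands and 344 and 102 in the tumors. Its highest and lowest signals were thus both on knockout arrays, and the knockout tumor alone was below the floor. The difference of knockout from wild type was 0.89 in the gland, just inside 2-fold, and -1.52 in the tumor, a change of -2.41 between tissues. The tumor call was lost with the offset at the median of all values, at -0.92, and where both tumors had to reach the floor. The knockout tumor was 6.67-fold below the knockout gland, whereas in wild type the tissues differed by -0.32. Serpina3n has other near copies in its neighbourhood, and 1 probe set measured it here.

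Markers beside the Serpina3n difference also moved between the tumors. Of 9 fibroblast markers 2 were called lower in the knockout tumor, Lum and Col6a1, and 1, Col1a1, was called higher in the knockout gland. Their summed signals were 39231 and 48596 in the glands and 26560 and 16278 in the tumors, the same order of genotypes as Serpina3n in each tissue. Macrophage markers had summed signals of 10348 and 13534 in the glands and 20474 and 15450 in the tumors, with 1 of 8 called higher in the knockout gland and none called between the tumors. The macrophage sums had the same order of genotypes too, as did those of the neutrophil, B cell, endothelial and keratinocyte markers. The luminal epithelium, adipocyte, T and NK cell, platelet, liver and muscle sums did not. Ltf, the largest part of the neutrophil sums, had the opposite order of genotypes to Serpina3n in each tissue. The part of any of these cell types was not tested.

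Serpina10, an inhibitor of the clotting factor Xa, had signals of 84.2 and 176 in the glands and 7.0 and 6.9 in the tumors. It crossed the floor in the knockout gland alone, by a small margin, and its knockout tumor signal was 5.95-fold lower than there, a call that was lost with the offset at the median of all values (-0.98), and lost for the floor alone after quantile normalization (-2.16) and where both arrays had to reach it. Its single probe set is of a design that can match several transcripts. The other 6, Serpina12 (vaspin), Serpina1b and Serpina1c (antitrypsins), Serpina3a, Serpina5 (protein C inhibitor) and Serpina6 (corticosteroid-binding globulin), lay between 0.7 and 96.2. Serpina1b was brightest in the knockout gland, at 96.2 against 11.1 in the wild-type gland, with its second probe set at 64.3 against 7.7, and Serpina12 in the wild-type tumor, at 63.3 against 6.5 or less on the other arrays. Another 3 probe sets carry several serpin symbols, read between 0.2 and 56.9 and were not used. The liver markers Ttr, Apoa1, Apoa2, Ahsg and Fga were below the floor on all 4 arrays, and Alb read 393 and 372 in the glands and 1.0 and 6.2 in the tumors. The other liver markers, the fibrinogen chains Fgb and Fgg, were called higher in both tumors and carried the list's summed signals of 1040 and 956 in the glands and 12696 and 7488 in the tumors.

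In the single-gene clades, the gene called between tissues was Serping1, the C1 inhibitor, which blocks the first proteases of complement and plasma kallikrein. Its signals were 3144 and 3704 in the glands and 957 and 745 in the tumors. The tumors were 3.22-fold and 4.83-fold lower than the gland in wild type and knockout, and the glands and tumors did not overlap. C1ra, a protease that it inhibits, had signals of 956 and 1267 in the glands and 388 and 284 in the tumors and was called lower in both tumors too. Between genotypes Serping1 differed by 0.23 in the gland and -0.35 in the tumor.

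Serpinh1 (Hsp47), a collagen chaperone that inhibits no protease, and Serpinf1 (PEDF), a secreted antiangiogenic protein that inhibits none either, were bright on every array. Serpinh1 read 3664 and 4861 in the glands and 4701 and 4095 in the tumors. Serpinf1 read 2428 and 3429 in the glands and 3679 and 3070 in the tumors in the same order. Both were therefore higher in the knockout gland, with differences of 0.41 and 0.49, and lower in the knockout tumor, with differences of -0.20 and -0.26, all within 2-fold. The second probe set of Serpinf1 had the same signs, at 0.57 and -0.55, and that of Serpinh1 had 0.04 and -0.32. The summed fibroblast markers had the same order of genotypes in each tissue, as did several other marker sums named above. The part of these cell types was not tested.

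The remaining inhibitors of clotting and plasmin were dim. Serpinc1 (antithrombin) lay between 10.5 and 47.8, Serpind1 (heparin cofactor II) between 2.6 and 60.7 and Serpinf2 (alpha2-antiplasmin) between 4.4 and 70.4. In clade I, Serpini1 (neuroserpin, an inhibitor of tissue plasminogen activator) and Serpini2 lay between 0.8 and 78.4. Serpinf2 and Serpini1 were higher in the knockout than in the wild type in both tissues, but below the floor throughout.

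**Figure D4:**
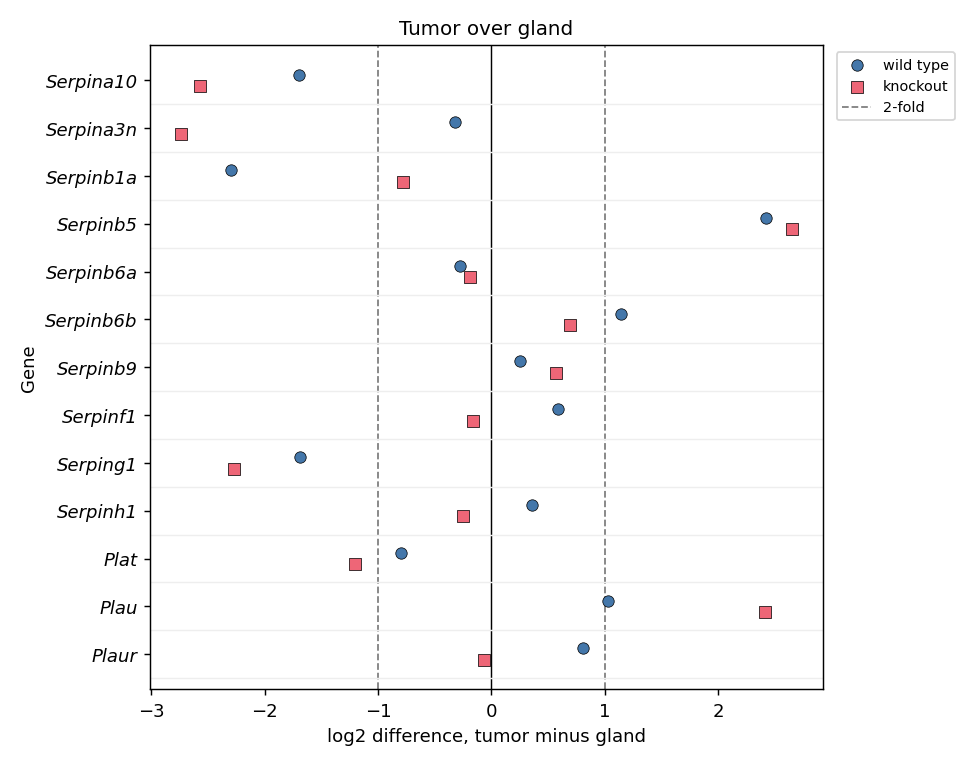
Difference of tumor from gland (log2) in wild type (circles) and knockout (squares) for the 13 genes that reached the floor, with 2-fold marked by dashed lines. Serpinb5 lies right of 2-fold and Serping1 left of it in both genotypes, while Serpina3n, Plau and Serpinb1a differ most between the genotypes.

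Other genes of the plasmin system were taken from a list of 43, of which 39 had a probe set and 25 reached the floor. None was called between the glands. Between the tumors 4 were called lower in the knockout and none higher, with a list median of 0.02, against 0.01 for all genes. Of all genes 1.14% were called lower between the tumors and 1.27% higher. Lrp1, the endocytic receptor that clears complexes of proteases with serpins, had signals of 2086 and 2597 in the glands and 836 and 394 in the tumors, a difference of 2.05-fold between the tumors. Fgg, a fibrinogen chain and so a part of the substrate of plasmin, read 491, 337, 5066 and 1903 on the arrays in that order and was 2.64-fold lower in the last of these. Mmp2 and Mmp3, matrix proteases that plasmin helps to activate, were 2.58-fold and 2.18-fold lower there.

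The transcript of Plg, plasminogen itself, lay between 1.9 and 29.1, at background on all arrays. The arrays measure RNA, so the amount of plasminogen protein in the tissue is not known from them. Its cell surface receptors Anxa2 and S100a10 were bright and differed between genotypes by at most 0.17 in size in either tissue. Vtn, vitronectin, the matrix protein that stabilises plasminogen activator inhibitor, read 190 and 353 in the glands and 108 and 42.6 in the tumors. In wild type 5 genes of the list were called higher in the tumor than in the gland and 5 lower, and in knockout 5 and 6, out of 39, beside 8.33% and 10.5% of all genes in wild type and 8.29% and 11.8% in knockout. The fibrinogen chain Fgb, called higher in both tumors, had signals of 90.8 and 155 in the glands and 7583 and 5546 in the tumors.

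**Figure D5:**
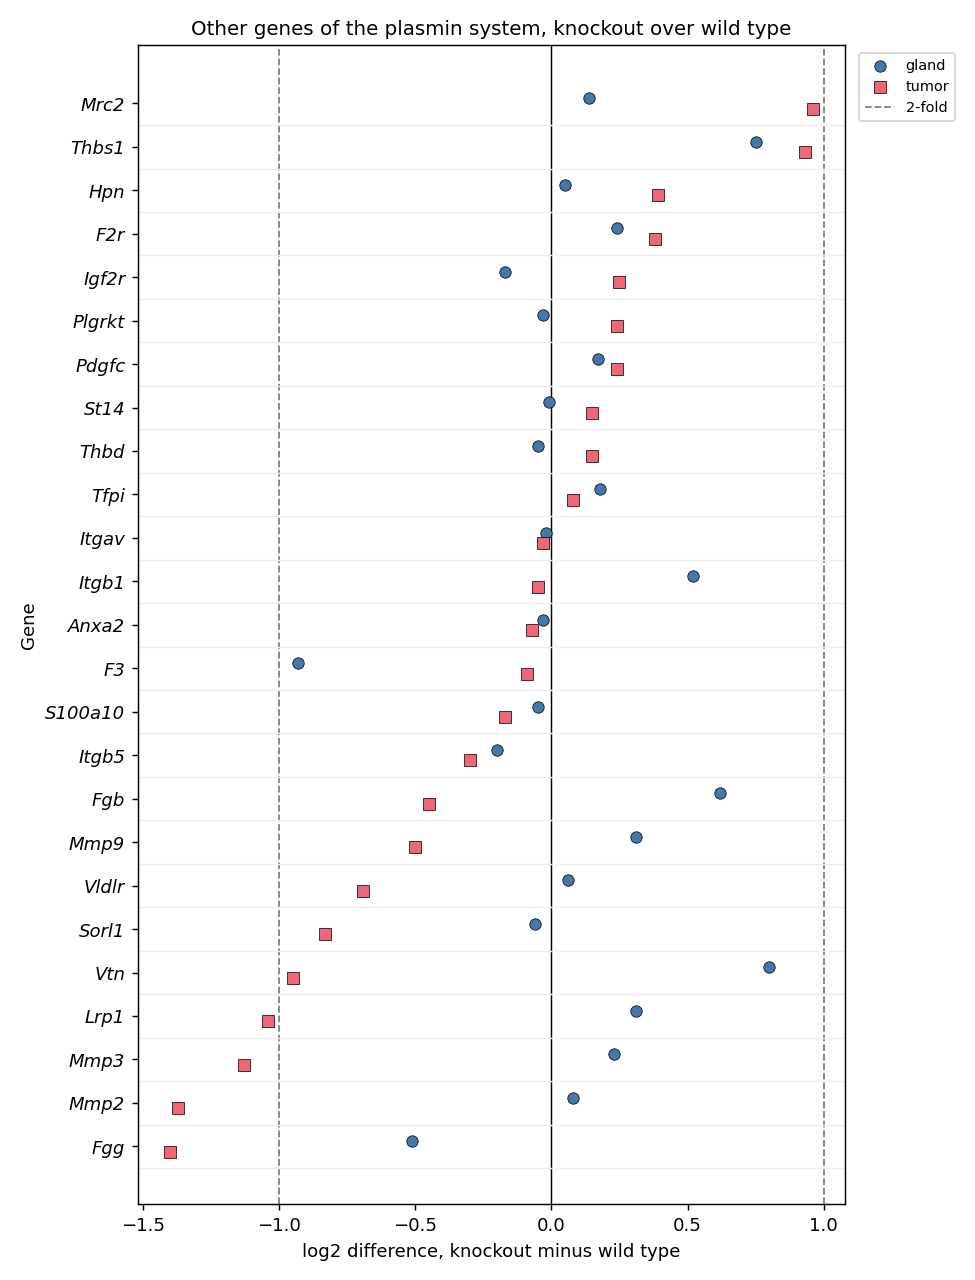
Difference of knockout from wild type (log2) in the gland (circles) and the tumor (squares) for the 25 listed genes of the plasmin system that reached the floor, ordered by the tumor difference. Lrp1, Mmp3, Mmp2 and Fgg lie past 2-fold to the left in the tumor, and no gene is past 2-fold in the gland.

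Proteases that serpins inhibit and inhibitors of other families formed a second list, with 31 of 37 genes measured and 23 at the floor. None was called between the glands, where the list median was 0.30, against 0.04 for all genes. Both are as deposited, and median centring moved that of all genes to -0.19. The list median between the tumors was -0.11, against 0.01 for all genes. Between the tumors 4 were called lower in the knockout, and these were the kallikreins Klk6 (308 and 18.2 in the tumors), Klk7 (305 and 41.0) and Klk8 (223 and 90.0), which act in shedding of the epidermis, and Stfa3, a cystatin-type inhibitor of cathepsins (607 and 3.1). Masp1, a protease of the lectin pathway of complement, was the 1 gene called higher, at 133 and 301. The shares of all genes called between the tumors were 1.14% lower and 1.27% higher. All 4 lower genes were below the floor except in the wild-type tumor. On that array the summed keratinocyte markers were also highest: 7 of 13 were called lower in the knockout tumor, Krt1 from 894 to 11.7 and Krt10 from 2447 to 272, while Krt5 and Krt14 were not, and their part in the kallikrein differences was not tested. Transcripts of the neutrophil proteases Elane and Ctsg were below the floor on all 4 arrays. Prtn3 read 506 and 415 in the glands and 66.8 and 147 in the tumors. Of the 3 proteases that Serpinb1a is best known to inhibit, only Prtn3 thus had a transcript above the floor, in the glands. The proteins were not measured.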

How the data were processed

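The authors deposited 1 intensity value per probe set and array, on a linear scale. Per the labels' protocols the arrays were Affymetrix arrays hybridised with biotin-labelled cRNA; they were made by software not given in the sources used here. In the deposited intensity values the mean of each array without its lowest and highest 2% was 500, so the arrays had been scaled. Of 22690 probe sets, 20393 had 1 gene symbol in the platform annotation, updated by gene identifier where RefSeq held it (20364); 691 had several and 1606 were not listed. Each gene stands on its probe set with the highest mean signal. Differences, calls and counts were computed with Python 3.11.15, numpy 2.4.6 and pandas 2.3.3. The procedure was tested on simulated data with changes planted only in genes well above the floor, so calls near the floor were not covered. With 1 array per group no test was made, and precision is limited by the 4 arrays. The members and lists were chosen with earlier results of these data known. Genes called in any comparison are given on all 4 arrays and dim ones by range; of the other lists, genes called between genotypes are named with Plg, Anxa2, S100a10, Lrp1 and Vtn, and marker genes, Fgb, C1ra, Elane, Ctsg, Prtn3 and the dim genes given singly were named after their values were seen. Alternatives were another offset, scaling, floor, choice of probe set and fold.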

Additional observations from a re-analysis of the deposited data

Results flagged for a closer look

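The difference of knockout from wild type had opposite signs in gland and tumor for 6 genes with an array at the floor in each tissue. None of these contrasts could be tested with 1 array per group. The share of all genes with opposite signs was not counted, so the 6 cannot be set against it. All but Serpina3n were within 2-fold in both tissues. Serpina3n stood furthest apart, the tumor difference minus the gland difference being -2.41 on the log2 scale. The same quantity was -0.89 for Plaur, -0.75 for Serpinf1, -0.60 for Serpinh1, -0.59 for Serping1 and -0.39 for Plat. The gland signs of Plaur and Plat turned under another scaling, and the gland difference of Serping1 became 0.01 under median centring. For Plaur, Serpinf1 and Serpinh1 the difference of tumor from gland also had opposite signs in the genotypes, positive in wild type and negative in knockout, and the change is by construction the same -0.89, -0.75 and -0.60. Median centring turned the knockout signs of all 3 of these to positive.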

How the results depend on the processing

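No paired analysis was possible because each group has 1 array. The calls of Serpinb5 and Serping1 for tumor over gland were kept in both genotypes under each of the 10 alternatives, and no called member reversed its sign. Counts that differed from those reported by more than 1.5 times, or that became or ceased to be 0, were these. With an offset of 1 there were 2 members higher in the knockout gland, and the median of members for knockout tumor over gland was -1.07. With the offset at the median of all values 0 were higher in the knockout gland, 1 higher and 0 lower in the knockout tumor, 1 higher in the wild-type tumor than gland and 2 lower in the knockout tumor than gland. Median centring, quantile normalization and the median over probe sets each left 0 higher in the knockout gland, and the last also left 0 higher in the knockout tumor, and 1 lower (wild type) and 1 higher (knockout) in tumor over gland. Without a floor the counts were 3 higher in the knockout gland, 3 lower in the knockout tumor, 6 higher and 5 lower in the wild-type tumor than gland, and 4 higher and 9 lower in the knockout. With both arrays required at the floor they were 0 higher and 0 lower between the tumors, 1 lower in the wild-type tumor than gland, and 1 higher and 2 lower in the knockout. At 1.5-fold 3 were higher in the knockout gland, 2 lower in the knockout tumor and 4 higher in the wild-type tumor than gland. Among the values for single genes and medians, 140 stayed as they were, called or close in value, 22 calls were lost with the same sign and 1, the median above, moved. Of the 22 lost calls 10 were under 2-fold, and 12 were still past 2-fold but no longer met the floor. The other counts changed by at most 1 member. Signals near background limit the folds of Plau, Serpinb1a and Serpina10.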
